A study of Mus musculus with 8 samples.

Results

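The comparison described here sets mouse embryonic stem (ES) cells transfected with the Tet1 siRNA numbered 1 and labelled 48 h against ES cells transfected with a control siRNA and labelled 96 h; the labels do not state from when the hours count. It rests on 4 of the 8 arrays of the series, taken by their titles as 2 arrays of siRNA 1 at 48 h and 2 arrays of the control at 96 h, and it covers 15267 genes. All cells were of the line E14Tg2a, and the control was an RNA duplex directed at firefly luciferase, an insect gene that mouse cells lack. The other arrays, 2 of siRNA 1 at 96 h and 2 of a different Tet1 duplex, siRNA 2, at 96 h, were used to see which of the differences at 48 h recurred at the later time. No control at 48 h was analysed here, so the siRNA and the time differ together in the comparison, and their effects cannot be told apart. Total RNA was labelled by in vitro transcription with an Affymetrix kit, per the labels' protocols, and each gene has 1 RMA value per array on the log2 scale, on which 1 unit is a factor of 2. Tet1 itself is not among the genes that the probe annotation names, so the knockdown that the labels state was not checked here against its transcript. Separate cultures are not stated in the labels for replicate arrays, so each p-value reflects the spread between 2 arrays a group, and that spread may be technical.

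Tet1 is one of a small family of dioxygenases that oxidise methylated cytosine in DNA, first to its hydroxymethylated form. ES cells carry much of this enzyme, and it is found at promoters rich in CG dinucleotides, together with Polycomb and Sin3 repressor complexes. Mouse ES cells in culture move between a naive state, kept by leukaemia inhibitory factor (LIF) acting through Stat3 and factors such as Klf4, Esrrb and Nanog, and a formative state that resembles the later epiblast and expresses Otx2, Fgf5 and Dnmt3b. Many genes of the germ line are held silent in ES cells by promoter methylation and by repressor complexes that bind the E-box CACGTG.

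The 48 h arrays stood apart from the other 6 before any gene was considered. On principal component 1 (53.1% of the variance) they lay at 32.9 and 35.45, against -18.39 to -14.3 for the 4 Tet1 siRNA arrays at 96 h and -0.89 and -0.78 for the control arrays. On principal component 2 (28.1% of the variance) it was the control arrays that stood apart, at 25.09 and 26.22. There the 48 h arrays, at -7.61 and -8.80, lay among the Tet1 siRNA arrays of 96 h, at -13.9 to -3.08. Control probe sets that measure no mouse messenger RNA also differed on the 48 h arrays: the 18 probe sets for hybridisation controls averaged 10.97 and 11.02 at 48 h, against 11.64 to 12.02 on the 96 h arrays. The 24 probe sets for poly-A spike-in transcripts averaged 8.65 to 8.68 at 48 h, against 7.51 to 7.89 at 96 h, and the 3 probe sets for 18S ribosomal RNA 13.44 to 13.53, against 11.89 to 12.38. The time and the handling of these RNAs therefore cannot be told apart, and the part of handling in the results below was not tested. Across genes, Pearson's r was 0.997 to 0.998 within groups and 0.983 to 0.997 between groups. The bacterial trp probe sets, for which no target is taken to be present, gave at most 3.71 and serve as a guide to the level of an absent transcript.

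The largest falls at 48 h were in transcripts of the lung, a tissue that the labels do not name. Scgb1a1, which airway club cells secrete, had 3.71 and 4.03 at 48 h, against 12.66 and 12.64 in the control, a difference of -8.78 ± 0.25 (standard error of the limma fit, adjusted p = 3.4e-06). Sftpc, the surfactant protein of alveolar type 2 cells, had 5.40 and 5.39 at 48 h, against 10.24 and 10.54 in the control (-4.997 ± 0.22, limma adjusted p = 2.3e-05). The control was not alone in this, since Scgb1a1 averaged 12.47 ± 0.318 (SD, n = 6) over all the 96 h arrays, the Tet1 siRNA arrays included. At 48 h it was close to the level of an absent transcript, so the fitted difference stands only as a minimum. Bpifa1, a secreted airway protein, had 3.94 and 3.69 at 48 h, against 8.46 and 8.44 in the control, and Cyp2f2, a cytochrome of club cells, had 3.61 and 3.97, against 6.88 and 6.84. Ager, the receptor that marks alveolar type 1 cells, had 6.20 and 6.33 at 48 h, against 8.63 and 8.81 in the control, and Cbr2, a lung carbonyl reductase, 4.47 and 4.39, against 6.90 and 7.23. Of the 20 measured genes on a list of lung epithelial markers, 14 were lower (70%) and 1 was higher (5%) at 48 h, beside 18.4% and 17.1% of all genes. Sftpb, another surfactant gene, was not called, with 6.05 and 6.01 at 48 h, against 6.33 and 6.27 in the control (limma adjusted p = 0.11). The median of the list was -1.34, against 0.0031 over all genes. On the linear scale the list summed to 1737 and 1803 at 48 h, against 8683 to 9964 with siRNA 1 at 96 h, 7746 to 12625 with siRNA 2 at 96 h, and 11456 to 11668 in the control. Its members at or under the level of the absent transcript at 48 h came to 1, Aldh1a1, a retinaldehyde dehydrogenase, and to 0 in each 96 h group. In RNA of bulk samples, fewer cells of a type and less RNA per cell cannot be told apart. Where the lung transcripts of the 96 h arrays came from was not tested, nor whether any culture held lung cells.

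Markers of other cells that a lung would bring were counted next to the 18.4% of all genes lower and 17.1% higher. Of 22 leukocyte markers, 3 were lower (13.6%), among them Lyz2, the lysozyme of macrophages, with 5.17 and 4.85 at 48 h, against 7.90 and 8.18 in the control. The 1 that was higher was Fcer1g, with 6.48 and 6.49 at 48 h, against 5.97 and 5.93 in the control. The leukocyte count was 5 lower without replicate 1 of the control and 2 without either array of 48 h. Of 20 markers of fibroblasts and feeder cells, 9 were lower (45%) and 3 higher (15%). Fewer than 9 were lower whichever array was left out. Col3a1, a fibrillar collagen, had 4.23 and 4.36 at 48 h, against 6.48 and 6.88 in the control, and Gsn, the actin-severing protein gelsolin, 5.77 and 5.76, against 8.13 and 8.20. Col5a1, among the 3 higher, had 6.79 and 6.73 at 48 h, against 5.92 and 5.88 in the control, and was also higher with both siRNAs at 96 h. The summed signal of the fibroblast list was 3924 to 3962 at 48 h, against 4588 to 4771 in the control. It was 3919 to 4037 with siRNA 1 and 4241 to 4436 with siRNA 2 at 96 h. That of the leukocyte list was 1617 to 1650 at 48 h, against 2034 to 2191 in the control. It was 1645 to 1709 with siRNA 1 and 1685 to 1940 with siRNA 2 at 96 h. For both lists the sums at 48 h thus overlapped those of siRNA 1 at 96 h. Of 18 endothelial markers, 22.2% were higher and 27.8% lower, that is 4 and 5 genes (1 to 6 lower with 1 array left out, 1 without replicate 1 and 2 without replicate 2 of the 48 h group, and 2 without replicate 2 of the control), and the sums overlapped, 1821 to 1857 at 48 h against 1774 to 1911 in the control. Of 10 smooth muscle markers 1 was higher and 1 lower, and of 4 red blood cell markers none passed the test in the limma fit, with 1 lower at an unadjusted p under 0.05. The markers that define ES cells were high on every array: Pou5f1, the central pluripotency factor Oct4, had 13.66 and 13.51 at 48 h, against 13.63 and 13.76 in the control (limma adjusted p = 0.35), and Sox2, its partner, 13.19 and 13.28, against 13.30 and 13.29 (limma adjusted p = 0.53). The part of the lung transcripts in the other differences was not tested. With all genes of these other-cell lists left out, 5375 genes were called, against 5410 with them. The lists hold few of the genes tested, so this total could hardly move. It therefore cannot show how far lung transcripts enter the differences of the genes that were kept.

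**Figure D1:**
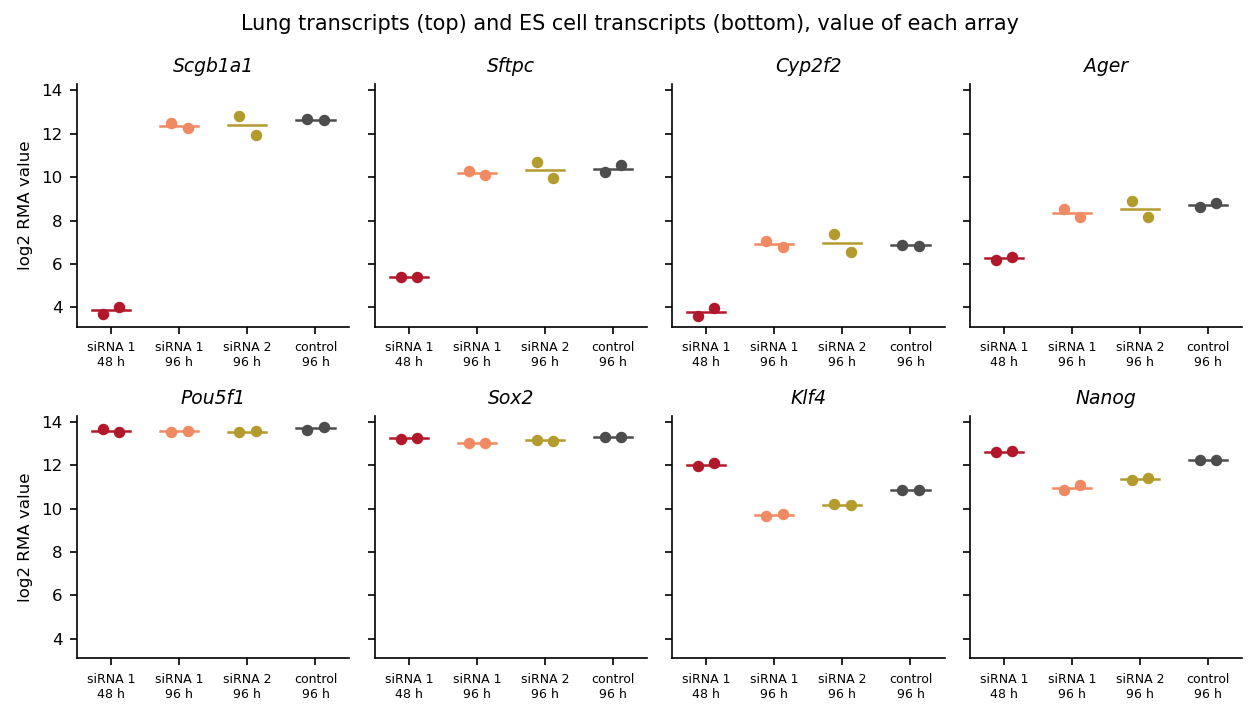
RMA values (log2, vertical axis) of 4 lung transcripts and 4 ES cell transcripts on each of the 8 arrays, by group; points are arrays and bars are group means. Scgb1a1 and Sftpc lie far lower at 48 h than on all 6 arrays of 96 h, whereas Pou5f1 and Sox2 lie close together in all groups.

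Across the genome, 5410 of 15267 genes (35.4%) differed between siRNA 1 at 48 h and the control at an adjusted p below 0.05 in a limma fit, 2605 of them higher (17.1%) and 2805 lower (18.4%). These 2 shares are the background for every count of list members called at 48 h against the control. Without replicate 2 of the 48 h group the count was 3212. Most of the differences were small: 1591 genes (10.4%) were called and differed by at least 1.5-fold. The comparisons at 96 h, which use the same control arrays, called 3487 genes (22.8%) with siRNA 1, 11.6% of all higher and 11.2% lower, and 2392 (15.7%) with siRNA 2, 8.01% higher and 7.66% lower. At 1.5-fold or more these shares were 7.45% and 4.78%. In direct comparisons with the 96 h siRNA groups the control does not enter the difference, though its arrays add to the fitted spread. Against siRNA 1 at 96 h the 48 h arrays differed in 5748 genes (37.6%, with 18.5% higher and 19.2% lower). Against siRNA 2 at 96 h they differed in 5473 (35.8%, with 17.6% higher and 18.2% lower). At 1.5-fold or more the shares were 11.9% and 11.2%.

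Of the 5410 genes, 988 recurred, being called in the same direction with both siRNAs at 96 h, 535 of them higher and 453 lower. Another 611 recurred in part, 520 with siRNA 1 and 91 with siRNA 2. The most numerous class, 3355 genes or 62% of those called, was called with neither siRNA at 96 h, and 2243 of these also differed from both Tet1 siRNA groups at 96 h in the same direction (978 higher, 1265 lower). The remaining 456 genes were called in the opposite direction with at least 1 siRNA at 96 h, 253 of them with both. Because all 3 comparisons share the control arrays, these counts describe the arrays and are no independent repeat. Array by array they also moved: without replicate 2 of siRNA 2 at 96 h, 542 genes recurred and 944 recurred in part, without replicate 2 of the control 552 recurred and 187 were opposite, without replicate 1 of the control 638 and 195, and without replicate 2 of the 48 h group 651, 400, 1917 and 244 genes made up the 4 classes in the order given. Without replicate 2 of siRNA 1 at 96 h, 394 recurred in part and 301 were opposite.

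By size of change, recurring genes that were higher had a median difference of 0.56 at 48 h, beside 0.62 with siRNA 1 and 0.52 with siRNA 2 at 96 h, and recurring genes that were lower had -0.53, beside -0.59 and -0.49. Of the 988, 148 lay further from the control at 48 h than with siRNA 1 at 96 h by the direct test, 230 lay nearer, and 610 showed no called difference between the times. Genes that did not recur had medians of 0.42 and -0.45 at 48 h, with 0.05 and -0.06 for siRNA 1 at 96 h. Opposite genes had 0.43 and -0.44 at 48 h, with -0.46 and 0.42 for siRNA 1 at 96 h. The calls in these same comparisons define the classes. The signs of the medians, and their small size at 96 h for genes that did not recur, were therefore largely fixed by the choice, and the values are a description.

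**Figure D2:**
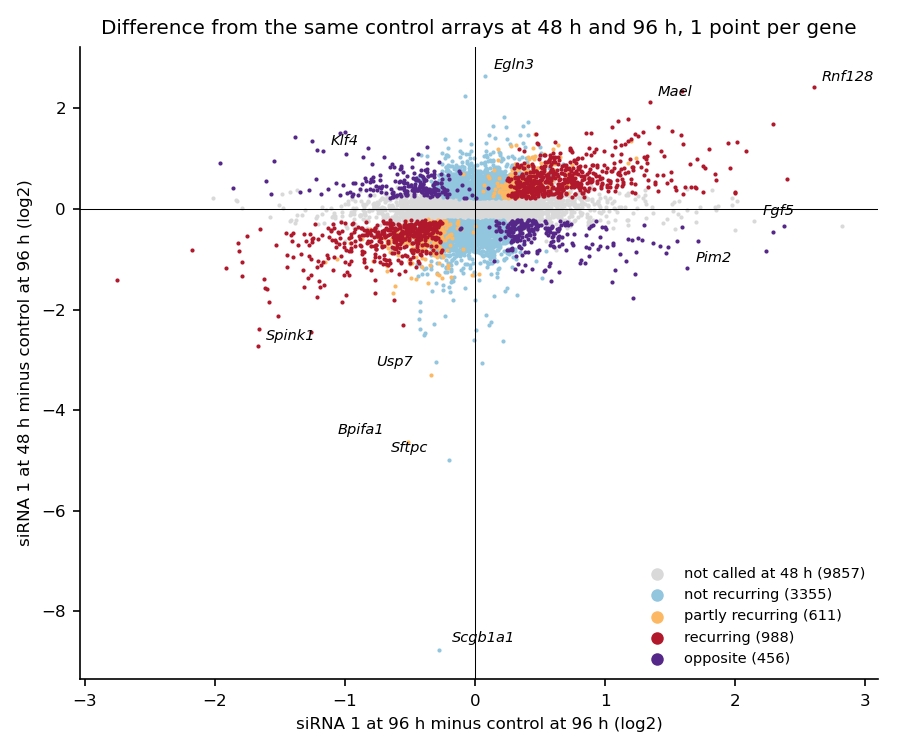
Difference of siRNA 1 at 48 h from the control (log2, vertical axis) against that of siRNA 1 at 96 h from the same control arrays (log2, horizontal axis), 1 point per gene, coloured by class of recurrence. Egln3 and Scgb1a1 lie near 0 on the horizontal axis, Rnf128 and Mael in the upper right and Klf4 in the upper left. Both axes share the control arrays.

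Among recurring genes that were higher, Rnf128, an E3 ubiquitin ligase of endosomal membranes known from T cell anergy, led. It had 9.08 and 9.08 at 48 h, 9.29 and 9.23 with siRNA 1 at 96 h and 9.05 and 8.9998 with siRNA 2 at 96 h, against 6.63 and 6.68 in the control. The rise of 2.43 ± 0.071 (limma adjusted p = 3.4e-06) was thus of the same order at each time, and the 48 h arrays did not differ from siRNA 1 at 96 h beyond the test's threshold (limma adjusted p = 0.084). Cpe, the carboxypeptidase that trims prohormones, had 10.30 and 10.50 at 48 h, against 8.61 and 8.59 in the control, and 9.75 and 9.81 with siRNA 1 at 96 h. Satb1, a chromatin organiser, had 8.40 and 8.51 at 48 h, against 6.66 and 6.98 in the control. Both control arrays lay below all 6 siRNA arrays for each of these genes.

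Pmaip1, Casp8 and Cdkn1a, all linked to cell death or arrest, were in the same class. Pmaip1, which encodes the BH3-only protein Noxa and is a p53 target, had 10.19 and 10.20 at 48 h, against 8.43 and 8.57 in the control (1.70 ± 0.076, limma adjusted p = 2.3e-05), and was higher still with siRNA 1 at 96 h, at 10.78 and 10.80. Casp8, the initiator caspase of death receptors, had 7.09 and 6.98 at 48 h, against 5.67 and 5.79 in the control, and 7.68 and 7.68 with siRNA 1 at 96 h. Cdkn1a, the cell cycle inhibitor p21, had 9.20 and 9.36 at 48 h, against 8.70 and 8.70 in the control (0.58 ± 0.082, limma adjusted p = 0.0013). For Pmaip1 and Casp8 the 96 h arrays of siRNA 1 lay above the 48 h arrays, by the direct test at adjusted p = 0.00067 and 0.00059 in limma. This was not so with siRNA 2 at 96 h, from which the 48 h arrays differed by -0.015 for Pmaip1 and -0.22 for Casp8. Neither of these differences passed the direct test (limma adjusted p = 0.90 and 0.064). Of 20 measured genes on the p53 response list, 8 were higher (40%) and 6 lower (30%) at 48 h, beside 17.1% and 18.4% of all genes. The list thus had no single direction (5 higher without replicate 2 of either group). Sesn1, a p53-induced stress protein, rose by 0.79 and did not recur, while Trp53inp1, a p53-induced autophagy protein, fell to 8.53 and 8.45 at 48 h, against 9.23 and 9.03 in the control. Of 19 apoptosis genes 5 were higher (26.3%) and 1 lower (5.26%, 2 lower without replicate 2 of the control), and of these 6, 3 recurred and 3 did not. Bok, a Bcl-2 relative, recurred with a rise of 0.45.

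Recurring genes that were lower included secreted and cytoskeletal products. Spink1, a trypsin inhibitor, had 8.22 and 7.86 at 48 h, 9.18 and 9.02 with siRNA 1 and 9.77 and 9.71 with siRNA 2 at 96 h, against 10.76 and 10.77 in the control (-2.73 ± 0.12, limma adjusted p = 2.3e-05). Trh, the precursor of thyrotropin-releasing hormone, had 9.35 and 9.03 at 48 h, against 11.58 and 11.68 in the control, and Krt17, a keratin, 6.50 and 6.22, against 8.96 and 8.51. For Spink1 and Trh the 48 h arrays lay below all arrays of 96 h. Lefty1, an antagonist and target of Nodal, had 9.86 and 9.65 at 48 h, 10.81 and 11.09 with siRNA 1 at 96 h, against 11.53 and 11.61 in the control, and the related Lefty2 had 7.18 and 7.35 at 48 h, against 8.996 and 8.94. Both Lefty genes were lower at 48 h than with siRNA 1 at 96 h (limma adjusted p = 0.00095 and 0.0069).

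Of the 15 measured genes of the Nodal and Activin list 5 were higher (33.3%) and 2, Lefty1 and Lefty2, were lower (13.3%) in limma. Of all genes 17.1% were higher and 18.4% lower. The list's median was -0.11. At an unadjusted p under 0.05, 5 were higher and 5 lower. Tdgf1, the Nodal co-receptor Cripto, had 13.74 and 13.77 at 48 h, against 13.13 and 13.17 in the control, and Smad7, an inhibitory Smad induced by the pathway, 11.41 and 11.45, against 10.30 and 10.27 (1.15 ± 0.075, limma adjusted p = 8.4e-05). The list had 3 higher genes without replicate 1 of the 48 h group. Eomes, a T-box factor of trophoblast and mesendoderm, had 7.76 and 7.69 at 48 h, 7.95 and 7.90 with siRNA 1 at 96 h and 7.86 and 7.62 with siRNA 2 at 96 h, against 6.74 and 6.72 in the control. Its rise of 0.99 ± 0.092 (limma adjusted p = 0.00024) did not differ between 48 h and 96 h beyond the threshold (limma adjusted p = 0.12).

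The germline and meiosis list held the highest median among the lists, 0.90 at 48 h, beside 0.55 with siRNA 1 and 0.45 with siRNA 2 at 96 h. Of its 21 measured genes 14 were higher and none was lower at 48 h in limma, against 17.1% of all genes higher; at an unadjusted p under 0.05 the counts were 16 and 0. Of these 14, 9 recurred, 2 recurred in part, 2 did not recur and 1 was opposite. The count stayed between 14 and 15 when any array was left out. Mael, a factor of the piRNA pathway that guards against transposons, had 8.84 and 8.92 at 48 h, 8.01 and 8.19 with siRNA 1 and 7.81 and 8.03 with siRNA 2 at 96 h, against 6.77 and 6.74 in the control (2.12 ± 0.10, limma adjusted p = 2.6e-05). Tex11, a meiotic recombination protein encoded on the X chromosome, had 6.65 and 6.59 at 48 h, against 3.96 and 4.60 in the control, where it lay not far above the level of an absent transcript. Slc25a31, the germ cell ADP/ATP carrier of mitochondria, had 7.34 and 7.28, against 5.38 and 5.75. For each of these genes both 48 h arrays lay above the Tet1 siRNA arrays of 96 h, which in turn lay above the control arrays, and the direct test against siRNA 1 at 96 h gave limma adjusted p = 0.00071, 0.023 and 0.0063.

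Against siRNA 1 at 96 h directly, 10 of the 21 germline genes were higher at 48 h and 1 lower, and against siRNA 2 at 96 h 14 were higher and 1 lower. Of all genes, 18.5% were higher and 19.2% lower in the first comparison, and 17.6% and 18.2% in the second. Ddx4, the RNA helicase Vasa, had 9.25 and 9.25 at 48 h, 9.06 and 9.06 with siRNA 1 at 96 h, against 7.85 and 7.87 in the control (1.39 ± 0.067, limma adjusted p = 2.7e-05), and its difference from siRNA 1 at 96 h did not pass the test (limma adjusted p = 0.06), while that from siRNA 2 at 96 h, 0.39, did (limma adjusted p = 0.0030). Piwil2, an Argonaute protein of the piRNA pathway, had 7.37 and 7.22 at 48 h, 6.74 and 6.83 with siRNA 1 and 6.73 and 6.72 with siRNA 2 at 96 h, against 6.24 and 6.12 in the control, and was 0.51 above siRNA 1 at 96 h (limma adjusted p = 0.0024). Taf7l, a germ cell relative of a TFIID subunit, and Dazl, an RNA-binding protein of germ cells, were picked from the list after their values were seen. Taf7l had 7.05 and 7.06 at 48 h, 7.09 and 6.94 with siRNA 1 at 96 h, against 5.66 and 5.36 in the control, and Dazl had 7.65 and 7.55, 7.20 and 7.13, against 6.58 and 6.28. Stra8, which retinoic acid induces at the entry into meiosis, behaved otherwise: it had 7.95 and 7.96 at 48 h, 6.24 and 6.44 with siRNA 1 and 6.37 and 6.67 with siRNA 2 at 96 h, against 5.93 and 6.30 in the control. Its rise of 1.84 ± 0.15 (limma adjusted p = 0.00014) did not recur, and the direct difference from siRNA 1 at 96 h was 1.61 ± 0.15 (limma adjusted p = 0.00014). The opposite member was Sycp3, of the synaptonemal complex, with 10.63 and 10.58 at 48 h and 9.34 and 9.28 with siRNA 1 at 96 h, against 9.57 and 9.79 in the control, and was also named after its values were seen. The germline list includes genes known to be silenced by DNA methylation, and no methylation was measured on these arrays.

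**Figure D3:**
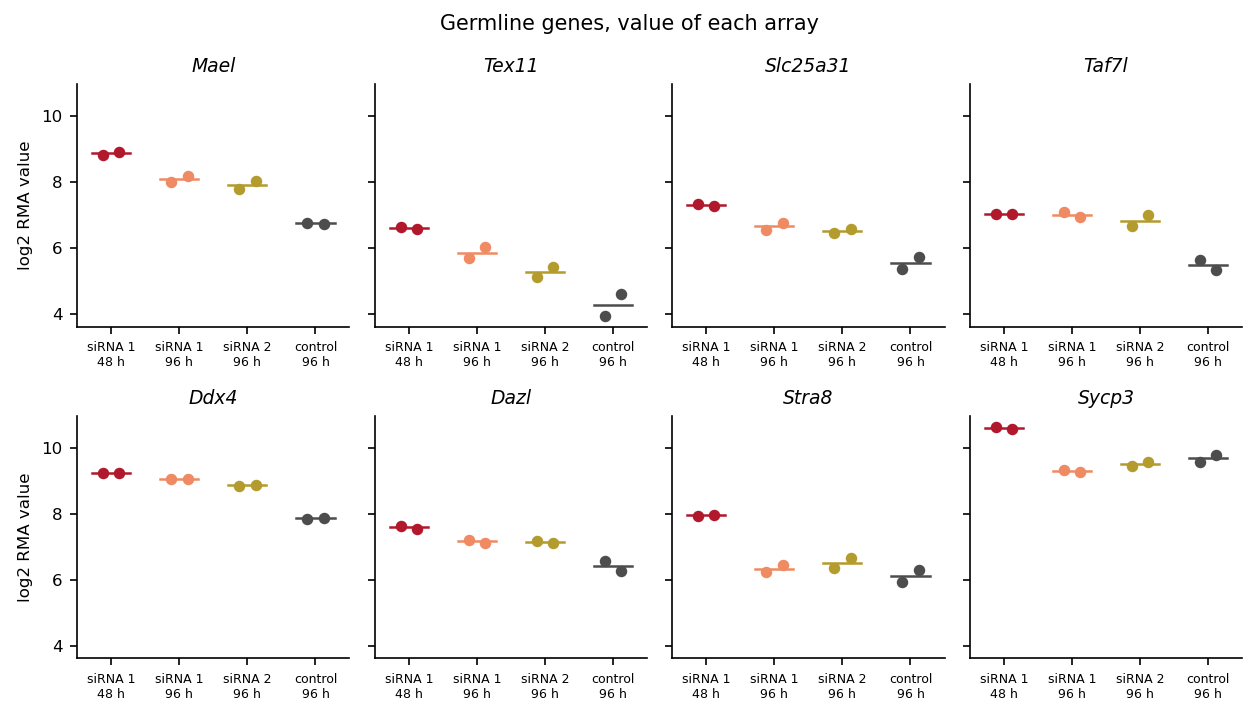
RMA values (log2, vertical axis) of 8 germline genes on each of the 8 arrays, by group; points are arrays and bars are group means. Mael, Tex11 and Slc25a31 step down across the groups from left to right, Taf7l and Ddx4 lie above the control in all 3 Tet1 siRNA groups, and Stra8 and Sycp3 are highest at 48 h.

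The promoters of Mael, Slc25a31, Taf7l and Ddx4, genes of the list that recurred, are shown for the E-box named above. Each line gives the 250 bases before the transcription start from RefSeq (build GRCm38.p6), read 5′ to 3′ on the strand of the gene, with CACGTG in capitals; the palindrome reads the same on both strands. The Mael window is chr1:166238745-166238994 (minus strand), that of Slc25a31 chr3:40708621-40708870 (plus strand), that of Taf7l chrX:134476491-134476740 (minus strand) and that of Ddx4 chr13:112652311-112652560 (minus strand).
Mael: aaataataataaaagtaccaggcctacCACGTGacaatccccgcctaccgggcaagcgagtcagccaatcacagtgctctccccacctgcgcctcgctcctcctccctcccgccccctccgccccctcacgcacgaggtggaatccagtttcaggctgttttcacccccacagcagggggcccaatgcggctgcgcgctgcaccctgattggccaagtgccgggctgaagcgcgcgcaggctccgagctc
Slc25a31: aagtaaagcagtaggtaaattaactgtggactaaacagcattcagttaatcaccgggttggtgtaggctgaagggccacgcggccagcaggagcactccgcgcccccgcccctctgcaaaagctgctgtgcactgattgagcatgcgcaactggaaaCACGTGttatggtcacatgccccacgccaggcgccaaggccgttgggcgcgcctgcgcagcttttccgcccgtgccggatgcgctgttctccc
Taf7l: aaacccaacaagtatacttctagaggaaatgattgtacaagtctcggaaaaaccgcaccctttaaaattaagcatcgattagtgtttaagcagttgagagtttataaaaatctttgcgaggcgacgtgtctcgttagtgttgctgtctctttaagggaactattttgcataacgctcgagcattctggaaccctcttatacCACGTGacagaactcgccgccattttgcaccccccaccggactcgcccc
Ddx4: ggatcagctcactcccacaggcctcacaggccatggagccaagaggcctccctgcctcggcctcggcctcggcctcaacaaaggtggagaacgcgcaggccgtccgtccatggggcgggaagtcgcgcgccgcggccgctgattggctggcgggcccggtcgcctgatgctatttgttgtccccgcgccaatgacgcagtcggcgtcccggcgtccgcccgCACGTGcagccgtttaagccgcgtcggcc

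Each of these windows held 1 CACGTG, starting at position -223, -93, -49 and -29 in the order printed, and 18, 18, 14 and 31 CG dinucleotides. Of the 19 germline list genes with a promoter entry, 9 (47.4%) held the motif, and so did 7 of the 12 called higher at 48 h (58.3%). Over all tested genes with an entry it was found in 956 of 12273 (7.79%), in recurring genes that were higher in 33 of 410 (8.05%) and in genes higher at 48 h that did not recur in 99 of 1251 (7.91%). A match describes these letters and is neither a measured binding site nor a cause. The median number of CG dinucleotides was 15 for the list and 13 for all genes.

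Among genes that were higher at 48 h than in all 3 groups of 96 h, Egln3, an oxygen-sensing prolyl hydroxylase that hypoxia induces, had the largest rise. It had 9.31 and 9.16 at 48 h, 6.65 and 6.67 with siRNA 1 and 6.54 and 6.79 with siRNA 2 at 96 h, against 6.61 and 6.55 in the control. The 96 h groups lay together, and the 48 h arrays lay 2.65 ± 0.099 above the control (limma adjusted p = 9.9e-06) and 2.57 above siRNA 1 at 96 h (limma adjusted p = 6.3e-06). Siah2, a ubiquitin ligase that acts on these hydroxylases, had 7.70 and 7.76 at 48 h, against 5.70 and 6.29 in the control, and Bhlhe40, a hypoxia-induced transcriptional repressor, 9.02 and 9.0003, against 7.33 and 7.44. H1f2, a linker histone, had 9.80 and 9.80 at 48 h, against 8.08 and 8.20 in the control. Zc3h6, which encodes a zinc finger protein, was near the level of an absent transcript at 96 h, with 3.81 and 3.67 in the control, and had 6.03 and 5.94 at 48 h. None of these genes was called at 96 h with either siRNA.

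The glycolysis and hypoxia list followed Egln3 in part. Of its 22 measured genes 13 were higher (59.1%) and 2 lower (9.09%) at 48 h, beside 17.1% and 18.4% of all genes. Its median was 0.33, beside -0.32 with siRNA 1 and -0.26 with siRNA 2 at 96 h. Against siRNA 1 at 96 h directly, 21 were higher at 48 h and none lower in limma, beside 18.5% and 19.2% of all genes. The list's counts were the same at an unadjusted p under 0.05. Egln1, the principal oxygen-sensing hydroxylase, had 8.74 and 8.76 at 48 h, against 7.44 and 7.57 in the control, and Adm, the peptide adrenomedullin, 5.34 and 5.62, against 4.01 and 4.28. Pfkp, a phosphofructokinase of glycolysis, had 10.33 and 10.12 at 48 h, 8.11 and 8.18 with siRNA 1 and 8.21 and 8.46 with siRNA 2 at 96 h, against 9.15 and 9.11 in the control. It was thus above the control at 48 h and below it at 96 h, as was Slc2a3, a glucose transporter, with 12.63 and 12.62 at 48 h, 11.50 and 11.40 with siRNA 1 at 96 h, against 12.06 and 12.07. The 2 lower members were Ankrd37 and Kdm3a, both known as hypoxia-induced genes, which differed by -0.65 and -0.63 and recurred. Members of the list therefore moved in both directions at 48 h.

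Genes of amino acid supply were the most widely higher of all lists. Of 24 measured genes 18 were higher (75%) and 2 lower (8.33%) at 48 h, beside 17.1% and 18.4% of all genes. The list's median was 0.53, beside -0.12 with siRNA 1 and -0.11 with siRNA 2 at 96 h. Against siRNA 1 at 96 h directly, 19 were higher and 2 lower, beside 18.5% and 19.2% of all genes. Of the 20 called, 11 did not recur and 7 were opposite. Asns, asparagine synthetase, had 11.78 and 11.79 at 48 h, 10.48 and 10.52 with siRNA 1 at 96 h and 10.48 and 10.56 with siRNA 2 at 96 h, against 10.68 and 10.75 in the control (1.07 ± 0.073, limma adjusted p = 9.4e-05). Psat1, of serine synthesis, had 11.98 and 11.90, against 11.01 and 11.12, and Phgdh, the first enzyme of that path, 10.64 and 10.80, against 9.70 and 9.74. Phgdh was the member that recurred, with a rise of 0.49 with siRNA 1 and 0.39 with siRNA 2 at 96 h. Slc1a4, a carrier of neutral amino acids, had 7.18 and 7.19 at 48 h, against 6.44 and 6.19 in the control. The lower members were the transporters Slc7a3 and Slc38a2, with differences of -0.45 and -0.65.

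The list of the integrated stress and unfolded protein responses was split. Of 21 measured genes 11 were higher (52.4%) and 5 lower (23.8%) at 48 h, beside 17.1% and 18.4% of all genes. The list's median was 0.29, beside -0.15 with siRNA 1 and -0.18 with siRNA 2 at 96 h. Chac1, which degrades glutathione and is induced by the factor Atf4, had 8.91 and 8.58 at 48 h, 6.18 and 6.22 with siRNA 1 and 6.29 and 6.22 with siRNA 2 at 96 h, against 7.02 and 7.46 in the control (1.504 ± 0.15, limma adjusted p = 0.00034). Nupr1, a stress-induced chromatin protein, had 7.46 and 7.57, 5.31 and 4.95 and 5.38 and 5.63 in the same order, against 6.17 and 6.52 in the control. Trib3, a pseudokinase, had 8.99 and 8.92 at 48 h, 7.46 and 7.51 with siRNA 1 at 96 h, against 7.97 and 7.96, and Xbp1, the transcription factor of the unfolded protein response, 11.45 and 11.41, 9.86 and 9.93, against 10.32 and 10.35. In all 4 the control arrays lay between the 48 h arrays above and the Tet1 siRNA arrays of 96 h below. Not every Atf4-linked gene followed: Sesn2, a stress sensor of the mTOR pathway, fell to 8.25 and 8.57 at 48 h, against 9.91 and 10.02 in the control, and the chaperone Hsp90b1 differed by -0.69. Ddit4, an inhibitor of mTOR, rose by 0.88 and was the recurring member. Of the list, 8 genes were higher without replicate 1 of the 48 h group and 3 were lower without replicate 2.

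The promoters of Chac1 and Nupr1, which were opposite at the 2 times, are shown for the element TGATGCAA, at which Atf4 binds with C/EBP partners in amino acid response genes. Both windows come from RefSeq (build GRCm38.p6), are the 250 bases before the start, and are printed 5′ to 3′ on the strand of the gene. The Chac1 window is chr2:119350992-119351241 (plus strand) and the Nupr1 window is chr7:126625471-126625720 (minus strand). In both the element lies on the other strand, so the capitals spell its reverse complement.
Chac1: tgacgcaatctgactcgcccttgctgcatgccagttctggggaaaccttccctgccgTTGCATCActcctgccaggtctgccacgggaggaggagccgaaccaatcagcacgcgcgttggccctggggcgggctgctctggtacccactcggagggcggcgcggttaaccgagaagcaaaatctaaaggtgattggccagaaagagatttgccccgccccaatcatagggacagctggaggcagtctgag
Nupr1: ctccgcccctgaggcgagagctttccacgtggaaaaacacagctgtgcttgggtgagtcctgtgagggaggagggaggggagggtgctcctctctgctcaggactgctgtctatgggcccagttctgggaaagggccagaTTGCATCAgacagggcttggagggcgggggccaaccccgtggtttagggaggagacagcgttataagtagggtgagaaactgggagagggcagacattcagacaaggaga

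The element began at position -193 in Chac1 and at -110 in Nupr1, and no match was found in the windows of Xbp1 and Trib3. Searched on both strands, it was present in 4 of 21 genes of the stress list (19%), the same number being present among the 11 called higher at 48 h (36.4%), and in 72 of 12273 tested genes with an entry (0.587%). Among genes higher at 48 h that did not recur it was present in 12 of 1251 (0.959%), among those that were opposite in 3 of 170 (1.76%), and among those that recurred in 2 of 410 (0.488%). These are descriptions of the letters in a short window and say nothing of the factor's binding.

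Naive pluripotency genes were not lower as a group at 48 h, whereas they were lower at 96 h. Of 20 measured genes 7 were higher (35%) and 4 lower (20%) at 48 h, beside 17.1% and 18.4% of all genes. With siRNA 1 at 96 h none was higher and 16 were lower, beside 11.2% of all genes lower. With siRNA 2 at 96 h none was higher and 12 were lower, beside 7.66% of all genes lower. At an unadjusted p under 0.05 in limma, 0 were higher with either siRNA, and 16 and 17 were lower. The list's median was 0.22 at 48 h, beside -0.92 and -0.65 at 96 h. In the direct comparison of 48 h with siRNA 1 at 96 h, 17 of the 20 were higher and 1 lower, against 18.5% and 19.2% of all genes. Klf4, a naive factor under the control of Stat3, had 11.94 and 12.09 at 48 h, 9.65 and 9.73 with siRNA 1 and 10.20 and 10.17 with siRNA 2 at 96 h, against 10.85 and 10.87 in the control. It was 1.16 ± 0.079 above the control at 48 h (limma adjusted p = 9.7e-05) and 2.33 ± 0.079 above siRNA 1 at 96 h (limma adjusted p = 3.9e-06).

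Nanog, a homeobox factor of the same network, had 12.59 and 12.64 at 48 h, 10.85 and 11.09 with siRNA 1 at 96 h, against 12.26 and 12.24 in the control. Its rise over the control, 0.37 ± 0.096 (limma adjusted p = 0.019), was lost when any 1 of the 4 arrays was left out, with adjusted p = 0.0583 to 0.0977 in limma, whereas the difference from siRNA 1 at 96 h was 1.65 ± 0.096 (limma adjusted p = 2.1e-05). Esrrb, a nuclear receptor of the network, had 10.19 and 10.24 at 48 h, 8.47 and 8.59 with siRNA 1 at 96 h, against 9.83 and 9.93, and its call over the control was lost without replicate 2 of the 48 h group or replicate 1 of the control (limma adjusted p = 0.0701 in both). Gbx2, a homeobox gene downstream of Stat3, had 10.36 and 10.36 at 48 h, 8.94 and 8.94 with siRNA 1 at 96 h, against 9.53 and 9.49. The lower members went their own way: Dppa3, the maternal factor Stella, had 6.83 and 6.47 at 48 h, 7.80 and 7.88 with siRNA 1 at 96 h, against 8.04 and 7.96 in the control. Nr5a2, a nuclear receptor that can drive Pou5f1, had 9.47 and 9.53 at 48 h, 9.47 and 9.33 with siRNA 1 at 96 h, against 10.49 and 10.37, and recurred. Of 18 general pluripotency genes 5 were higher (27.8%) and 1 lower (5.56%) at 48 h, with 2 higher and 0 lower when any 1 of the 4 arrays was left out. Utf1, a chromatin-bound factor of pluripotent cells, had 12.12 and 12.10, against 11.42 and 11.35.

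Genes of the LIF pathway also differed between the times. Of 21 measured LIF and Stat3 targets 11 were higher (52.4%) and 2 lower (9.52%) at 48 h, beside 17.1% and 18.4% of all genes. Of those called, 6 were opposite. The list's median was 0.30, beside -0.25 with siRNA 1 and -0.21 with siRNA 2 at 96 h. Set directly against siRNA 1 at 96 h, 13 of the 21 were higher at 48 h and 3 lower, beside 18.5% and 19.2% of all genes. Socs3, the feedback inhibitor induced by Stat3, had 10.54 and 10.57 at 48 h, 9.64 and 9.54 with siRNA 1 and 9.85 and 9.78 with siRNA 2 at 96 h, against 10.10 and 10.06 in the control (0.48 ± 0.075, limma adjusted p = 0.0021). Stat3 itself had 9.22 and 9.29 at 48 h, against 9.41 and 9.29 in the control (limma adjusted p = 0.38). Myc, a growth regulator downstream of LIF, had 10.73 and 10.71 at 48 h, against 9.80 and 9.97 in the control, and recurred in part. The lower members were Gadd45g, a stress sensor, with 5.92 and 6.15 at 48 h, 8.05 and 8.05 with siRNA 1 at 96 h, against 7.56 and 7.37, and Egr1, an immediate early factor, with 9.23 and 9.10, against 9.97 and 9.996. Of 16 receptors, kinases and Stat proteins of the pathway 6 were higher (37.5%) and 3 lower (18.8%). With 1 array left out, 3 to 6 were higher and 1 to 3 lower. The fewest were higher without replicate 1 of the 48 h group or either control array, and the fewest lower without replicate 2 of the 48 h group. Tyk2, a Janus kinase, differed by -0.52 and its relative Jak1 by 0.41, both past the test's threshold.

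Formative and primed genes had no common direction at 48 h. Of 21 measured genes 7 were higher (33.3%) and 6 lower (28.6%) at 48 h, beside 17.1% and 18.4% of all genes. The list's median was -0.086, beside 0.39 with siRNA 1 and 0.36 with siRNA 2 at 96 h. Of those called, 7 recurred and 5 were opposite. Against siRNA 1 at 96 h, 12 of the 21 were lower at 48 h and 1 was higher, beside 19.2% and 18.5% of all genes. Otx2, the homeobox factor of the formative epiblast, had 8.46 and 8.42 at 48 h, 10.25 and 10.27 with siRNA 1 and 9.99 and 10.10 with siRNA 2 at 96 h, against 9.38 and 9.38 in the control (-0.94 ± 0.073, limma adjusted p = 0.00014). Pim2, a kinase, had 7.69 and 7.52 at 48 h, 10.49 and 10.32 with siRNA 1 at 96 h, against 8.80 and 8.75. Fgf5, the classical marker of that state, had 4.41 and 4.42 at 48 h, 6.96 and 6.63 with siRNA 1 and 6.36 and 6.79 with siRNA 2 at 96 h, against 4.66 and 4.64 in the control, and the 48 h difference did not pass the test (limma adjusted p = 0.26). Tcf15, a helix-loop-helix factor that primes ES cells for differentiation, was among the recurring members, with 12.26 and 12.28 at 48 h, against 11.40 and 11.42 in the control.

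**Figure D4:**
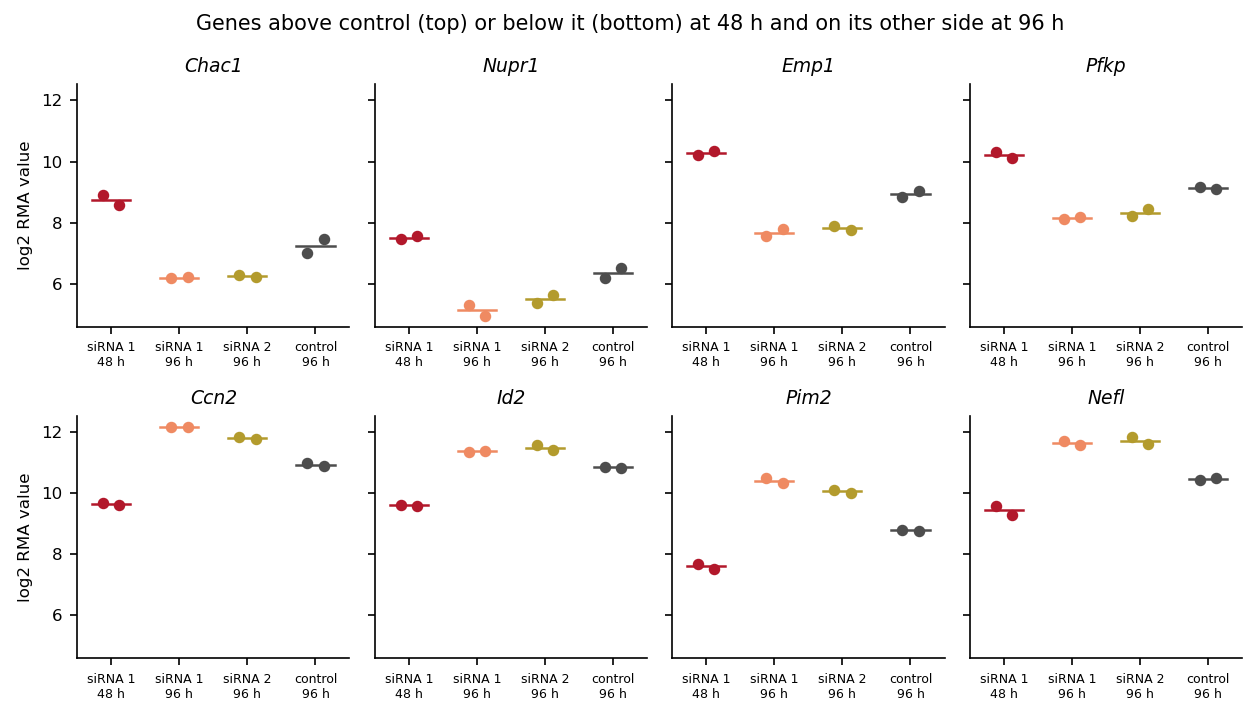
RMA values (log2, vertical axis) on each of the 8 arrays, by group, for 8 genes called in opposite directions at 48 h and with siRNA 1 at 96 h; points are arrays and bars are group means. In the top row (Chac1, Nupr1, Emp1, Pfkp) the 48 h arrays lie above the control and the 96 h siRNA arrays below it, and in the bottom row (Ccn2, Id2, Pim2, Nefl) the order is reversed.

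Beyond these lists, the largest opposite rises were those of Ampd3, an AMP deaminase, Chac1, Igsf21, a synaptic adhesion protein, and Emp1, an epithelial membrane protein. Emp1 had 10.21 and 10.35 at 48 h, 7.56 and 7.78 with siRNA 1 and 7.88 and 7.77 with siRNA 2 at 96 h, against 8.82 and 9.02 in the control, and Ampd3 had 7.94 and 7.90, 5.26 and 5.52 and 5.62 and 5.57 in the same order, against 6.26 and 6.51. Ccnd3, a D-type cyclin, had 10.62 and 10.66 at 48 h, 8.91 and 9.18 with siRNA 1 at 96 h, against 9.44 and 9.38. Each of these stood above the control at 48 h and below it at 96 h.

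The largest opposite fall was that of Slc23a1, which carries ascorbate, a cofactor of the Tet enzymes, into cells. It had 5.94 and 5.66 at 48 h, 8.92 and 8.62 with siRNA 1 and 8.59 and 8.61 with siRNA 2 at 96 h, against 7.51 and 7.60 in the control (-1.76 ± 0.12, limma adjusted p = 0.00011). Ccn2, a matricellular protein and target of the Hippo effector Yap, had 9.66 and 9.61 at 48 h, 12.16 and 12.16 with siRNA 1 and 11.85 and 11.77 with siRNA 2 at 96 h, against 10.98 and 10.88. Vgll3, a cofactor of the Tead proteins that Yap also binds, had 4.96 and 5.16, 7.45 and 7.27 and 7.52 and 7.46 in the same order, against 6.27 and 6.29. For all 3 genes the 48 h arrays lay below the control and all 4 Tet1 siRNA arrays of 96 h above it.

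Of 27 measured immediate early and ERK feedback genes 12 were higher (44.4%) and 3 lower (11.1%) at 48 h, beside 17.1% and 18.4% of all genes. Of those called, 7 recurred. Without replicate 1 of the 48 h group 8 were higher. Etv4, an Ets factor induced by ERK, had 9.50 and 9.52 at 48 h, 8.46 and 8.52 with siRNA 1 at 96 h, against 7.99 and 8.05 in the control (1.49 ± 0.070, limma adjusted p = 2.6e-05). Spry2, an inhibitor of receptor tyrosine kinase signalling, rose by 1.13. Of 17 BMP response genes 8 were higher (47.1%) and 5 lower (29.4%). Dusp9, an ERK phosphatase that BMP induces in ES cells, had 9.83 and 9.78 at 48 h, 9.24 and 9.15 with siRNA 1 at 96 h, against 8.34 and 8.26 in the control (1.51 ± 0.075, limma adjusted p = 2.8e-05). Id2, a helix-loop-helix inhibitor and direct BMP target, ran against it, with 9.62 and 9.58 at 48 h, 11.35 and 11.39 with siRNA 1 at 96 h, against 10.86 and 10.82. Of 17 Wnt response genes 6 were higher and 6 lower (35.3% each). Notum, which inactivates Wnt proteins, had 7.93 and 7.75 at 48 h, 7.28 and 7.17 with siRNA 1 at 96 h, against 8.46 and 8.39, and Sfrp1, a Wnt-binding protein, 7.9997 and 7.95, 7.07 and 7.06, against 8.40 and 8.52, so the falls of both recurred. With 1 array left out, 5 to 7 BMP genes were higher (5 without replicate 1 of the 48 h group or either control array) and 3 to 5 lower (3 without replicate 2 of the 48 h group or replicate 1 of the control).

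Among genes of DNA methylation and demethylation, 6 of 20 were higher (30%) and 8 lower (40%) at 48 h, beside 17.1% and 18.4% of all genes. Tet2, the family member next most used by ES cells, had 10.55 and 10.55 at 48 h, 9.21 and 9.20 with siRNA 1 and 9.46 and 9.41 with siRNA 2 at 96 h, against 10.13 and 9.89 in the control. It was thus 0.54 ± 0.090 above the control at 48 h (limma adjusted p = 0.0028) and below it at 96 h. Tet3, the member of oocytes and zygotes, had 5.24 and 4.91 at 48 h, against 5.55 and 5.66 in the control (-0.53 ± 0.11, limma adjusted p = 0.0074). Dnmt3b, a de novo methyltransferase, had 12.01 and 11.95 at 48 h, 13.23 and 13.22 with siRNA 1 at 96 h, against 12.38 and 12.32, and its cofactor Dnmt3l 11.46 and 11.35, 12.45 and 12.57, against 12.20 and 12.25. Both genes were lower than the control at 48 h and higher than it with siRNA 1 at 96 h. With siRNA 2 at 96 h Dnmt3b was also higher, by 0.70, while Dnmt3l differed by 0.20 and did not pass the test (limma adjusted p = 0.14). Of 20 Polycomb and Tet1 partner genes 4 were higher and 4 lower (20% each), near the shares of all genes. Ezh1, a catalytic subunit of Polycomb repressive complex 2, had 6.51 and 6.57 at 48 h, against 7.34 and 7.25 in the control, and recurred. Chd4, the remodeller of the NuRD complex, had 9.57 and 9.77 at 48 h, against 10.87 and 10.61, and did not recur. With replicate 2 of the 48 h group or either control array left out, 2 genes of that list were higher.

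Imprinted genes, which are expressed from 1 parental copy through methylation marks, had some of the larger falls. Peg3, a paternally expressed zinc finger gene, had 6.69 and 6.84 at 48 h, 8.60 and 8.47 with siRNA 1 and 8.51 and 8.32 with siRNA 2 at 96 h, against 9.13 and 9.03 in the control (-2.32 ± 0.098, limma adjusted p = 2.2e-05). Nnat, neuronatin, had 4.81 and 5.03 at 48 h, against 6.35 and 6.64, and Meg3, a maternally expressed long noncoding RNA, 9.59 and 9.56, against 10.87 and 10.86. Peg3 recurred, but Nnat and Meg3 did not, and both lay below both Tet1 siRNA groups of 96 h as well. Of the 23 measured genes of the list 6 were lower (26.1%) and 8 higher (34.8%) at 48 h, beside 18.4% and 17.1% of all genes. The list thus had no single direction. The count of lower genes was 6 when any array was left out, and that of higher genes was 2 and 4 without replicates 1 and 2 of the 48 h group and 5 without replicate 1 of the control. Outside the lists, Usp7, a deubiquitinase that stabilises Mdm2 and Uhrf1 among others, had 6.73 and 7.08 at 48 h, 9.83 and 9.89 with siRNA 1 at 96 h, against 10.31 and 10.09 in the control (-3.30 ± 0.12, limma adjusted p = 9.9e-06).

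Of 25 extraembryonic endoderm genes 4 were higher (16%) and 6 lower (24%) at 48 h, near the 17.1% and 18.4% of all genes. Gata6, the factor that defines that lineage, had 6.62 and 6.76 at 48 h, against 6.38 and 6.65 in the control (limma adjusted p = 0.26). Apoe, a lipid carrier expressed there, had 11.12 and 11.21, against 12.05 and 12.15, and recurred. Of 23 trophectoderm genes 6 were higher (26.1%) and 4 lower (17.4%). Cdx2, the defining factor of trophectoderm, had 5.83 and 5.996 at 48 h, against 6.01 and 5.80 in the control (limma adjusted p = 0.95), so its arrays overlapped. Lgals3, a galectin, had 11.19 and 11.06 at 48 h, 10.36 and 10.40 with siRNA 1 at 96 h, against 12.25 and 12.33 (-1.16 ± 0.078, limma adjusted p = 9.2e-05). Without replicate 1 of the control 2 trophectoderm genes were lower. Of 22 mesoderm and mesendoderm genes 2 were higher and 2 lower, 9.09% each (1 lower without replicate 1 of the control). Of 19 neuroectoderm genes 2 were higher and 9 lower, against 18.4% of all genes lower, with a median of -0.26 beside 0.0031. Pax6, a neural homeobox factor, had 4.69 and 4.68 at 48 h, against 5.25 and 5.26 in the control, and Tubb3, a neuronal tubulin, 7.38 and 7.26, against 8.60 and 8.69. Nefl, a neurofilament subunit, had 9.57 and 9.29 at 48 h, 11.72 and 11.57 with siRNA 1 at 96 h, against 10.44 and 10.51. Without replicate 1 of the 48 h group 6 neuroectoderm genes were lower.

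**Figure D5:**
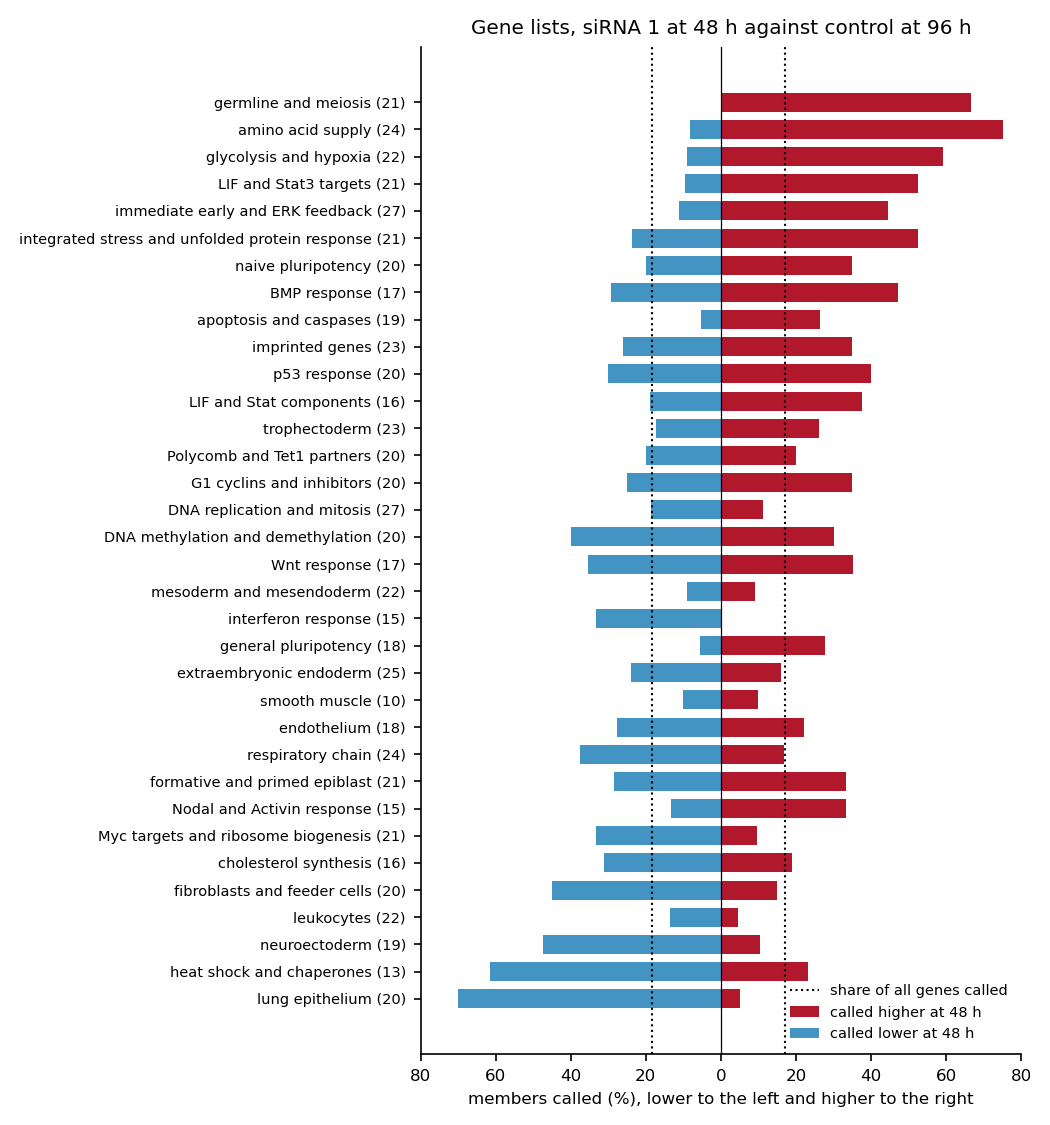
Share of the measured members of each gene list called higher (red, to the right) or lower (blue, to the left) at 48 h against the control (percent, horizontal axis), with list sizes in brackets, ordered by median difference; dotted lines mark the shares over all genes, 17.1% higher and 18.4% lower. Lists with under 10 measured genes are left out; germline genes and amino acid supply lie furthest to the right and lung epithelium furthest to the left.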

How the data were processed

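For each of 8 arrays the authors deposited 1 RMA value per probe set, in log2 units. RMA, which corrects background, normalizes arrays to one distribution and summarises probes, is named without a version in the submitters' processing notes; that the unit is log2 follows from the range of the values, whose array medians were 6.68 to 6.72. Of 16556 probe sets, 64 controls and 1222 without a symbol in the platform annotation were left out of gene tests, and 3 extra probe sets of a gene were dropped by lower mean, which left 15267 genes. No detection limit was set, since scanner signals were not analysed here, and the number of arrays limits the precision. No depth applies to arrays.

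Differences were tested with limma 3.58.1 (R 4.3.3) in a group-means model of all 8 arrays (4 residual and 4.13 prior degrees of freedom), checked on simulated data first. P-values are two-sided and were adjusted by Benjamini and Hochberg's method over all 15267 genes, separately for 5 comparisons, and a gene was called below 0.05. The errors after ± are standard errors of the fit unless SD is named. No replicate block was used: deviations of arrays with the same number correlated at -0.056 to 0.14 between groups, so the numbers were not taken to pair samples. Members of 37 gene lists (646 distinct genes measured) were counted, with no set test. The comparison, the lists and the rule for naming genes were chosen with earlier results of these data known. The rule took the largest changes overall and within each class, up to 4 called members of each list with the smallest adjusted p, and a panel of ES cell, lineage and lung genes; other list members were named where they explain a count, after their values were seen. Alternatives tried were the compared arrays alone, an intensity trend with a robust prior, quantile normalization, median centring, leaving out dim genes or genes of other cell types, a replicate block, a fold minimum of 1.5 and leaving out each array in turn. Promoter windows came from RefSeq tables (GRCm38.p6), which matched 12273 of the genes.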

Additional observations from a re-analysis of the deposited data

Results flagged for a closer look

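The 8 largest rises and the 8 largest falls at 48 h among genes called on opposite sides of the control at the 2 times also differed between siRNA 1 at 48 h and siRNA 1 at 96 h by a direct test in limma. Since the calls against the control chose these 16 genes, a difference between the times was fixed by the choice, and the values are a description. Higher at 48 h than at 96 h were Igsf21 (log2 difference 2.82), Emp1 (2.61), Chac1 (2.54), Ampd3 (2.53), Nupr1 (2.38), Klf4 (2.33), Slc38a5, a glutamine carrier (2.03), and Ccnd3 (1.59). Lower at 48 h than at 96 h were Slc23a1 (-2.98), Ccn2 (-2.52), Cav2, a caveolin (-2.51), Vgll3 (-2.30), Gadd45g (-2.01), Mthfd2l, a mitochondrial folate enzyme (-1.90), Id2 (-1.77) and Nrp2, a semaphorin receptor (-1.60). The time and the handling of the 48 h arrays cannot be told apart.

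Outside the gene comparison, the control probe sets also differed. The poly-A spike-in controls averaged 1.07 higher (log2) at 48 h than in the control at 96 h, and the 18S ribosomal RNA probe sets 1.42 higher, while the hybridisation controls differed by -0.98 and the absent trp probe sets by -0.09. Of 1222 probe sets without a gene symbol, 305 were called in the 48 h comparison by the same limma fit, 133 of them higher and 172 lower.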

How the results depend on the processing

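Of 176 named genes, 166 were called at 48 h against the control. None was reversed under an alternative, 10 lost the call in at least 1 setting and 2 (Klf1 and Sftpb) gained it in 1. Most named genes were chosen for their calls in this same comparison. These counts were therefore largely fixed by the choice and do not measure how stable the calls of other genes are. The call of the comparison rests on few arrays. With each array left out in turn the genes called ranged from 3212 to 5344 (5410 with all) for 48 h against the control, from 1906 to 3348 and from 1160 to 2043 for siRNA 1 and siRNA 2 at 96 h against it, and from 3664 to 5676 and 3461 to 5403 for 48 h against the same 2 groups. Recurring genes then ranged from 542 to 753, partly recurring from 394 to 944, not recurring from 1917 to 3766 and opposite from 187 to 389; distinct list members called ranged from 127 to 173 higher and 110 to 164 lower, against 176 and 160 with all arrays. With a minimum of 1.5-fold the 5 comparisons called 1591, 1137, 730, 1818 and 1710 genes in the order above, the classes held 223, 131, 1170 and 67, and 80 and 83 list members were higher and lower. Fitted on its 4 arrays alone, siRNA 2 at 96 h against the control called 1364 genes, in place of 2392. Without the dimmer genes 2174 did not recur, where fewer genes were tested. Taking siRNA 1 at 96 h alone, 1508 genes recurred. The replicate block gave 5165, 3256, 2096, 5502 and 5245 genes and classes of 888, 574, 3324 and 379, and changed none of these by over 1.5 times; the samples share only a number, with 1 of 6 pairs of groups correlating above 0.1 (0.14). Signal over background was not used here, so changes between levels near that of the absent transcript have no stated limit.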

Other observations

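Of 24 respiratory chain genes 4 were higher (16.7%) and 9 lower (37.5%) at 48 h than in the control, beside 17.1% and 18.4% of all genes. None of these 13 was called at 96 h. With 1 array left out, 2 to 3 were higher and 3 to 9 lower, 3 without replicate 2 of either group. Uqcrc1, a core subunit of complex III, had 12.73 and 12.81 at 48 h, against 12.11 and 12.13 in the control, and Cox5b, a subunit of cytochrome oxidase, 12.44 and 12.36, against 12.92 and 12.96. Of 13 heat shock and metal response genes 3 were higher (23.1%) and 8 lower (61.5%, 4 lower without replicate 2 of the 48 h group). Mt1, a metallothionein, had 11.95 and 11.997 at 48 h, against 12.96 and 13.11 in the control, and Bag3, a co-chaperone, 8.50 and 8.63, against 7.80 and 7.59. Of 28 cytosolic ribosomal protein genes written in the list only 7 were measured. Of these 7, 4 were lower (57.1%) and 0 higher in limma, the same counts as at an unadjusted p under 0.05, with Rps3 at 10.56 and 10.49, against 11.21 and 11.17. Rps9, another of the 4, differed by -0.25. Its call was lost with quantile normalization (limma adjusted p = 0.093) and with the 4 compared arrays alone (limma adjusted p = 0.055). Of 21 Myc target and ribosome biogenesis genes 2 were higher (9.52%) and 7 lower (33.3%, 3 lower without replicate 2 of the 48 h group and 4 without either control array). Wdr12, needed to build the large ribosomal subunit, had 7.27 and 7.24 at 48 h, against 8.73 and 8.59 in the control.

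Of 15 interferon response genes 5 were lower (33.3%) and 0 higher in limma, beside 18.4% and 17.1% of all genes. The counts were the same at an unadjusted p under 0.05. Ifitm3, an antiviral membrane protein, had 12.30 and 12.24 at 48 h, 12.18 and 12.09 with siRNA 1 at 96 h, against 13.06 and 13.13 in the control, and recurred. Of 16 cholesterol synthesis genes 3 were higher (18.8%) and 5 lower (31.2%). The numbers were 0 and 3 without replicate 2 of the 48 h group and 1 and 3 without replicate 1 of the control. Dhcr7, the last enzyme of the path, had 8.86 and 8.75 at 48 h, against 9.51 and 9.65 in the control. Of 20 regulators of G1 7 were higher (35%) and 5 lower (25%), with 3 and 4 higher without replicates 1 and 2 of the 48 h group and 4 without replicate 1 of the control. Of 27 replication and mitosis genes 3 were higher (11.1%) and 5 lower (18.5%), so neither share was above that of all genes by much. These numbers were 1 and 2 without replicate 2 of the 48 h group, and 1 and 4 without either control array. Ccnd1, a D-type cyclin, had 10.49 and 10.38 at 48 h, against 11.01 and 11.02 in the control, and Plk1, a mitotic kinase, 11.68 and 11.66, against 11.12 and 11.02. Of 3 measured genes of the two-cell state 1 was higher, Arg2, an arginase, at 4.62 and 4.74, against 4.10 and 4.03; it was not called without replicate 2 of either group (limma adjusted p = 0.0906 without that of 48 h and 0.0578 without that of the control).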
